A study of Mus musculus with 24 samples.

Results

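The genes described here are the expressed solute carriers of mouse colon, the membrane proteins that move ions, nutrients, metals and metabolites across cell and organelle membranes. They were chosen by name and level: targets of the gene table whose name has the form SLC, family number, A, member number, and whose mean raw bead intensity over all 24 arrays was 300 or more, leaving out Slc26a3, Slc9a3, Slc12a2, Slc5a8, Slc40a1 and Slc11a2. The rule gave 65 genes of 285 solute carrier targets and of 18097 targets in all. Of the 6 left out, 3 were at or above the level. The level was thus used to choose the genes and is given as a description only.

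Total RNA of colon from C57Bl/6 mice was hybridised to Illumina bead arrays of a single colour. Daily gavage began when the mice were 6 weeks old and went on for 7 days. Colon was taken from animals aged 14 weeks, when 7 weeks had passed since dosing ended. The groups were APCMin/+ mice (ApcMin) given ATB-346 at 14.5 mg/kg (6 arrays), ApcMin mice given naproxen at 10 mg/kg (6 arrays), ApcMin mice given vehicle, which held DMSO and carboxymethylcellulose (8 arrays), and wild-type mice given the same vehicle (4 arrays). ApcMin is a truncating mutation in 1 copy of the tumour suppressor Apc that gives intestinal tumours. Naproxen is a cyclooxygenase inhibitor, and ATB-346 is a hydrogen sulfide-releasing NSAID. All wild-type mice here received vehicle, so neither drug was given without the Apc mutation. The labels do not say whether tumours were part of the tissue, which stretch of colon was taken, or that each array was a separate animal, so p-values measure the spread between these arrays only.

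Some arrays stood apart before any comparison. Arrays numbered 5 to 8 (2 ATB-346, 2 naproxen, 4 vehicle, no wild type) differed from those numbered 1 to 4 at 37.1% of the 9048 targets tested, and the labels name no batch. Array medians of raw intensity were 81.4 to 102.9, and all arrays correlated with r of 0.928 to 0.994. The 8 colonocyte markers had a mean log2 signal of 12.01 to 12.82 in ATB-346 and 11.80 to 12.42 in naproxen arrays. It was 12.07 to 12.68 in vehicle and 12.13 to 12.42 in wild-type arrays, so the mean of this list was high on every array. Single markers varied more: Aqp8 was at 7.42 on naproxen replicate 1 and at 13.01 on ATB-346 replicate 4. The mean of 8 pancreatic acinar genes was 6.03 to 6.16 in ATB-346 arrays, 6.18 to 9.79 in naproxen, 6.02 to 14.19 in vehicle and 6.04 to 6.45 in wild type, and its part in the results was not tested. In whole colon, fewer cells of a type and less RNA per cell cannot be told apart.

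Solute carriers are grouped into families by sequence. Colonocytes use carriers of the surface membrane to absorb salt, short-chain acids and vitamins, many of them driven by the sodium gradient that the sodium pump sets up. The SLC25 family sits mostly in the inner mitochondrial membrane and passes nucleotides, phosphate and metabolic intermediates. SLC30 proteins lower and SLC39 proteins raise the zinc or other metal of the cytosol.

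By family, 17 of the 65 were SLC25 carriers, 11 carried metals, 8 carried amino acids and related compounds, 8 carried inorganic ions or acid-base equivalents, 7 belonged to families for vitamins, choline, heme and organic ions, 6 to families for sugars and related cargo, 4 to those for nucleosides and nucleotide sugars, 2 to those for mono- and dicarboxylates, and 1 each to a phosphate and a bile acid family. A family does not fix the cargo: Slc5a6 of the sugar families carries biotin and pantothenate, and Slc25a17 of the mitochondrial family sits in peroxisomes. Among those just inside the limit were Slc25a36, Slc25a25 and Slc45a3, with mean raw intensities of 307.9, 310.7 and 322.9. Just outside lay Slc20a1, Slc44a2, Slc19a1 and Slc25a12, at 299.2, 297.4, 296.3 and 293.4. All 65 passed the filter on low values. A probe's brightness also depends on its sequence, so signals were compared between arrays and not between genes.

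For the 62 genes with a named probe, the annotation listed 1 probe for 45 and several for 17. For 8 of these 17 the brightest probe was over 5 times the dimmest. Slc22a18, of an organic cation family, was the mean of probes at 73.7 and 1921 raw units, and Slc25a20, the carnitine-acylcarnitine carrier, of probes at 61.4, 1003 and 5239. Slc35a1, the CMP-sialic acid carrier of the Golgi, had a gene value equal to its probe at 978, while another probe assigned to it was at 4822.

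Within groups, a subset of the carriers varied several-fold from array to array. The pooled SD within groups was over 0.5 (log2) for 9 of 65 genes (13.8%), against 5.52% of all targets tested, and the median SD was 0.24 against 0.17. The largest was that of Slc30a10 (1.01), which exports manganese, followed by Slc17a4 (0.78), an intestinal phosphate and organic anion carrier, Slc8b1 (0.72), the sodium-calcium exchanger of mitochondria, Slc6a8 (0.61), the creatine carrier, Slc1a1 (0.61), a glutamate and aspartate carrier, and Slc12a8 (0.53), of the cation-chloride family. Slc25a5, the ADP/ATP carrier, varied little, with means of 14.46 ± 0.06, 14.38 ± 0.08, 14.40 ± 0.06 and 14.43 ± 0.08 in ATB-346, naproxen, vehicle and wild-type arrays (SD, n = 6, 6, 8 and 4). Slc35a4, of the nucleotide sugar family, averaged 10.15 ± 0.08, 10.13 ± 0.15, 10.12 ± 0.05 and 10.13 ± 0.07 in those groups.

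Other carriers of each class lay between these. Slc29a1, a nucleoside carrier of the surface membrane, averaged 8.42 ± 0.07 in ATB-346, 8.59 ± 0.18 in naproxen, 8.56 ± 0.17 in vehicle and 8.52 ± 0.08 in wild-type arrays (SD, n = 6, 6, 8 and 4 here and in the rest of the paragraph). Slc44a4, which takes up thiamine pyrophosphate in colon, averaged 11.57 ± 0.27 in ATB-346, 11.54 ± 0.15 in naproxen, 11.69 ± 0.23 in vehicle and 11.55 ± 0.27 in wild type. For both genes the group means differed by no more than the largest SD within a group. Slc39a11, a zinc carrier, averaged 11.10 ± 0.28 in ATB-346, 11.04 ± 0.18 in naproxen, 11.14 ± 0.21 in vehicle and 11.03 ± 0.24 in wild type. Slc26a2, the sulfate carrier that supplies mucin and matrix sulfation, averaged 8.53 ± 0.52 in ATB-346, 8.25 ± 0.53 in naproxen, 8.66 ± 0.44 in vehicle and 8.95 ± 0.43 in wild type. Its spread was several times that of Slc10a3, of the bile acid family, which averaged 9.38 ± 0.14, 9.32 ± 0.08, 9.35 ± 0.08 and 9.35 ± 0.12 in those groups.

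Slc17a4 had a lowest, median and highest log2 signal of 7.71, 8.43 and 9.80 in ATB-346 arrays, 8.74, 9.67 and 10.11 in naproxen arrays and 7.98, 8.55 and 9.94 in vehicle arrays, and was at 8.06, 7.62, 7.95 and 9.80 on the 4 wild-type arrays. The 4 groups overlapped, and in wild type replicate 4 alone was high. Slc8b1 ran the other way in wild type, at 9.99, 10.36, 10.57 and 8.86, so that replicate 4 was the low one. Its lowest, median and highest values were 8.71, 9.60 and 10.51 in ATB-346, 8.58, 8.87 and 10.41 in naproxen and 8.67, 9.90 and 10.47 in vehicle arrays. Slc1a1 was at 8.96, 9.18, 9.04 and 7.73 in wild type, again with replicate 4 low, and ran from 7.60 to 9.35 in ATB-346, 7.61 to 9.18 in naproxen and 7.56 to 9.19 in vehicle arrays. Slc30a10 spanned 12.6-fold over the 24 arrays, with lowest, median and highest values of 6.68, 8.33 and 9.75 in ATB-346, 7.64, 8.84 and 9.60 in naproxen and 7.27, 8.79 and 10.33 in vehicle arrays. The wild-type arrays were at 8.13, 8.32, 8.40 and 9.95. The lowest raw intensity of Slc30a10 was 106.6, near the array medians of 81.4 to 102.9. Its fold range and SD thus include values near the background.

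The same arrays differed in Osr2, a transcription factor entered here as the only gene of a list for proximal position in the colon. Its lowest, median and highest log2 signal was 7.57, 9.29 and 12.90 in ATB-346, 10.64, 12.46 and 12.81 in naproxen and 6.64, 9.62 and 12.90 in vehicle arrays. The wild-type arrays were at 6.61, 7.24, 6.85 and 13.01. All 6 naproxen arrays were thus above the vehicle median, and wild-type replicate 4 was high alone. Aqp8, a water channel of surface colonocytes, was at 12.43, 12.70, 12.47 and 9.56 on the wild-type arrays, low where Osr2 was high. Other markers of its list went the other way. Of the 8 colonocyte markers, 4 had positive and 2 negative slopes on Osr2 with a limma adjusted p under 0.05 (median over the 8 of 0.05). Of all targets 11.1% had positive and 13.7% negative ones. In other cell type lists, 2 of 2 adipocyte markers tested had positive slopes that passed. Negative ones passed for the only B cell and plasma cell markers tested, 1 of 4 goblet and 1 of 5 macrophage markers. None passed among 6 smooth muscle, 4 fibroblast, 8 pancreatic acinar, 2 enteric neuron and glia and 2 erythroid markers. The part of these lists in the slopes was not tested. The small intestine list had 2 measured genes, Fabp6 and Sis, with a mean of 6.64 to 8.63 in ATB-346, 7.37 to 8.78 in naproxen, 6.54 to 8.63 in vehicle and 6.33 to 8.74 in wild-type arrays. Sis, the brush border enzyme sucrase-isomaltase, had a slope of 0.65 on Osr2 (adjusted p = 2.76e-09) and Fabp6, the ileal bile acid binding protein, one of 0.03. The part of this list in the results was not tested.

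**Figure D1:**
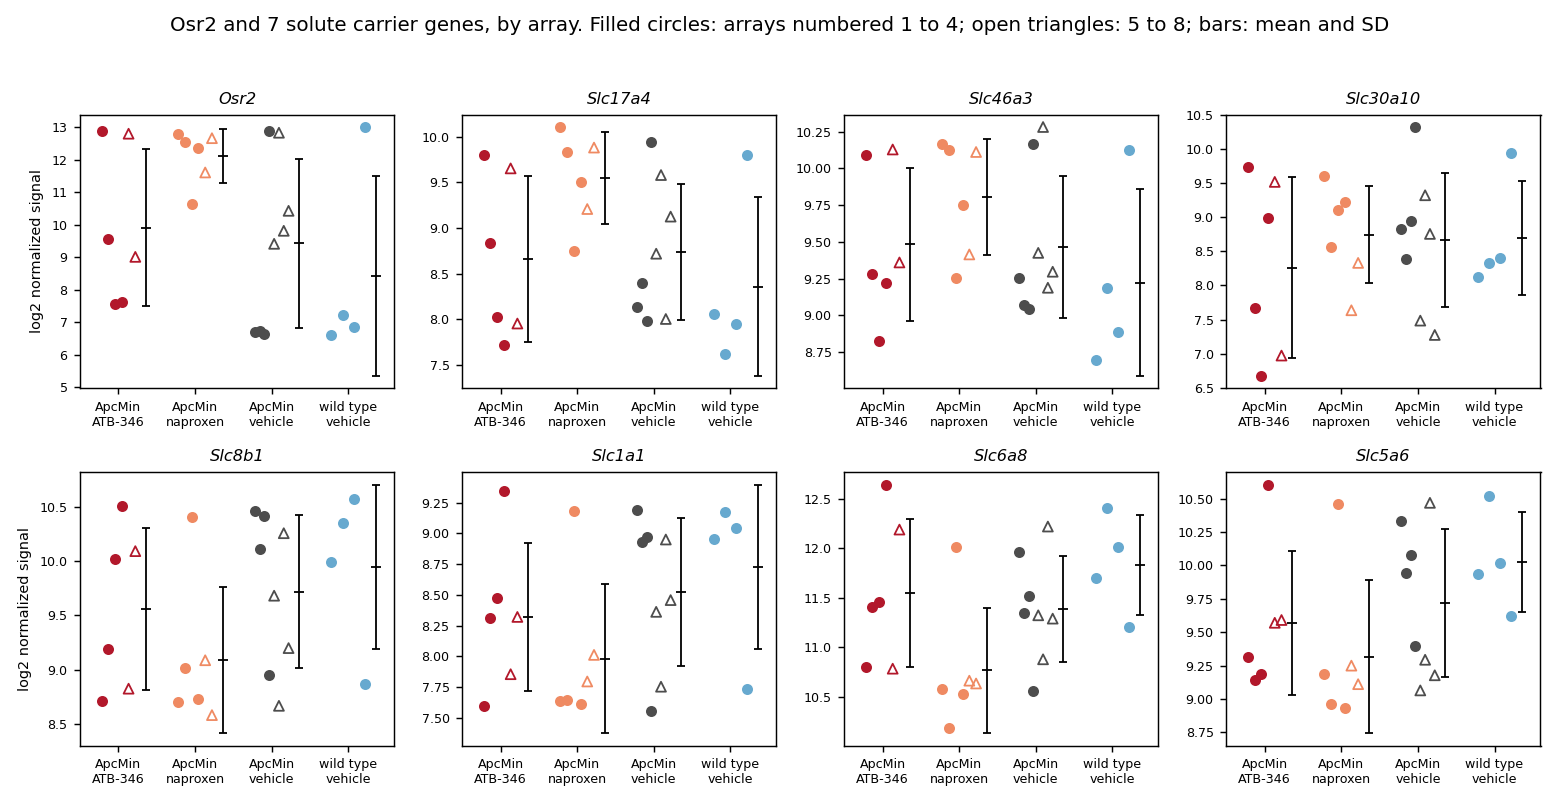
Log2 normalized signal of Osr2 and 7 solute carrier genes on each array, by group from left to right (ATB-346, naproxen, vehicle, wild type); filled circles are arrays numbered 1 to 4, open triangles 5 to 8, and bars give the mean and SD of a group. Slc17a4 and Slc46a3 are high on the arrays where Osr2 is high, such as wild-type replicate 4 (9.80 and 10.12), and Slc8b1 and Slc1a1 are low there (8.86 and 7.73).

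A slope of each target on the Osr2 level was fitted with the group means kept, an analysis added after the data were seen. Of the 65 carriers, 31 had a slope with a limma adjusted p under 0.05 (47.7%), 22 positive and 9 negative, where the background was 24.8% of 9047 targets (11.1% positive and 13.7% negative). At an unadjusted p under 0.05 there were 37 of 65, against 35.4% of all. All 31 slopes had the same sign within the arrays numbered 1 to 4 and within those numbered 5 to 8. The 31 were chosen on these same arrays, so the shared signs are no separate test. Within 5 to 8 some slopes were near 0, such as that of Slc24a3 (0.00787). With the number set as a block 29 of 65 passed, 27 of them among the 31, against a background of 26.7%. Among targets with a mean raw intensity of 300 or more, the level used to choose the genes, 1381 of 4827 passed, and 31 of the 65. Within the 8 arrays numbered 5 to 8 alone 1 of 65 passed, Slc16a9, against 1.43% of all targets. The median slope was 0.02 log2 per log2 unit of Osr2 over the 65 and -0.00303 over all targets tested. Slopes describe genes that differ between the same arrays, several of which lie at the ends of the Osr2 range. The solute carrier targets below 300, of which 81 of 217 were tested, had 10 positive and 11 negative slopes that passed.

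Among surface and lysosomal carriers, Slc17a4 had the steepest positive slope, 0.31 (95% interval 0.25 to 0.37, adjusted p = 1.11e-07). Slc46a3, a lysosomal carrier of heme and related molecules, had 0.19 (0.15 to 0.24, adjusted p = 2.69e-07), and Slc4a2, a chloride-bicarbonate exchanger, 0.11 (0.08 to 0.14, adjusted p = 4.47e-06). Slc16a9, of the monocarboxylate family, had 0.18, Slc8a1, a sodium-calcium exchanger of the surface membrane, 0.16, and Slc6a6, the taurine carrier, 0.10. Slc46a3 was named after its values were seen, as were Slc8a1, Slc25a1, Slc25a10, Slc25a24, Slc25a28, Slc25a39, Slc25a44, Slc22a5, Slc30a5, Slc37a1 and Slc39a7. The opposite slopes were those of Slc8b1, -0.27 (-0.34 to -0.20, adjusted p = 2.30e-06), Slc1a1, -0.23 (-0.29 to -0.16, adjusted p = 5.88e-06), Slc6a8, -0.18 (-0.27 to -0.09, adjusted p = 0.00256), Slc45a3, of a sugar carrier family, -0.13, Slc5a6, -0.12, and Slc31a1, the copper importer, -0.08. The 4 slopes that did not pass with the number set as a block were those of Slc5a6 (-0.11, adjusted p = 0.0686), Slc44a4, of the choline carrier family (0.04, adjusted p = 0.0769), Slc5a1, the sodium-glucose cotransporter (0.05, adjusted p = 0.0939), and Slc7a4, of the cationic amino acid carrier family (0.05, adjusted p = 0.0894).

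Of the 17 SLC25 carriers 6 had positive slopes that passed and none a negative one: Slc25a10, the dicarboxylate carrier, 0.18, Slc25a33, a pyrimidine nucleotide carrier, 0.12, Slc25a44, a carrier of branched-chain amino acids, 0.08, Slc25a1, the citrate carrier, 0.07, Slc25a38, a glycine carrier needed for heme synthesis, 0.07, and Slc25a39, which carries glutathione, 0.05. Of the 11 metal carriers, the positive slopes that passed were those of Slc30a10 (0.24), Slc30a1, the zinc exporter of the surface membrane (0.12), and Slc39a4, a zinc importer (0.10). The negative one was that of Slc31a1. Of the 8 ion carriers 4 passed with a positive and 2 with a negative slope. Of all targets 11.1% had positive and 13.7% negative slopes that passed, and these classes hold few genes each.

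**Figure D2:**
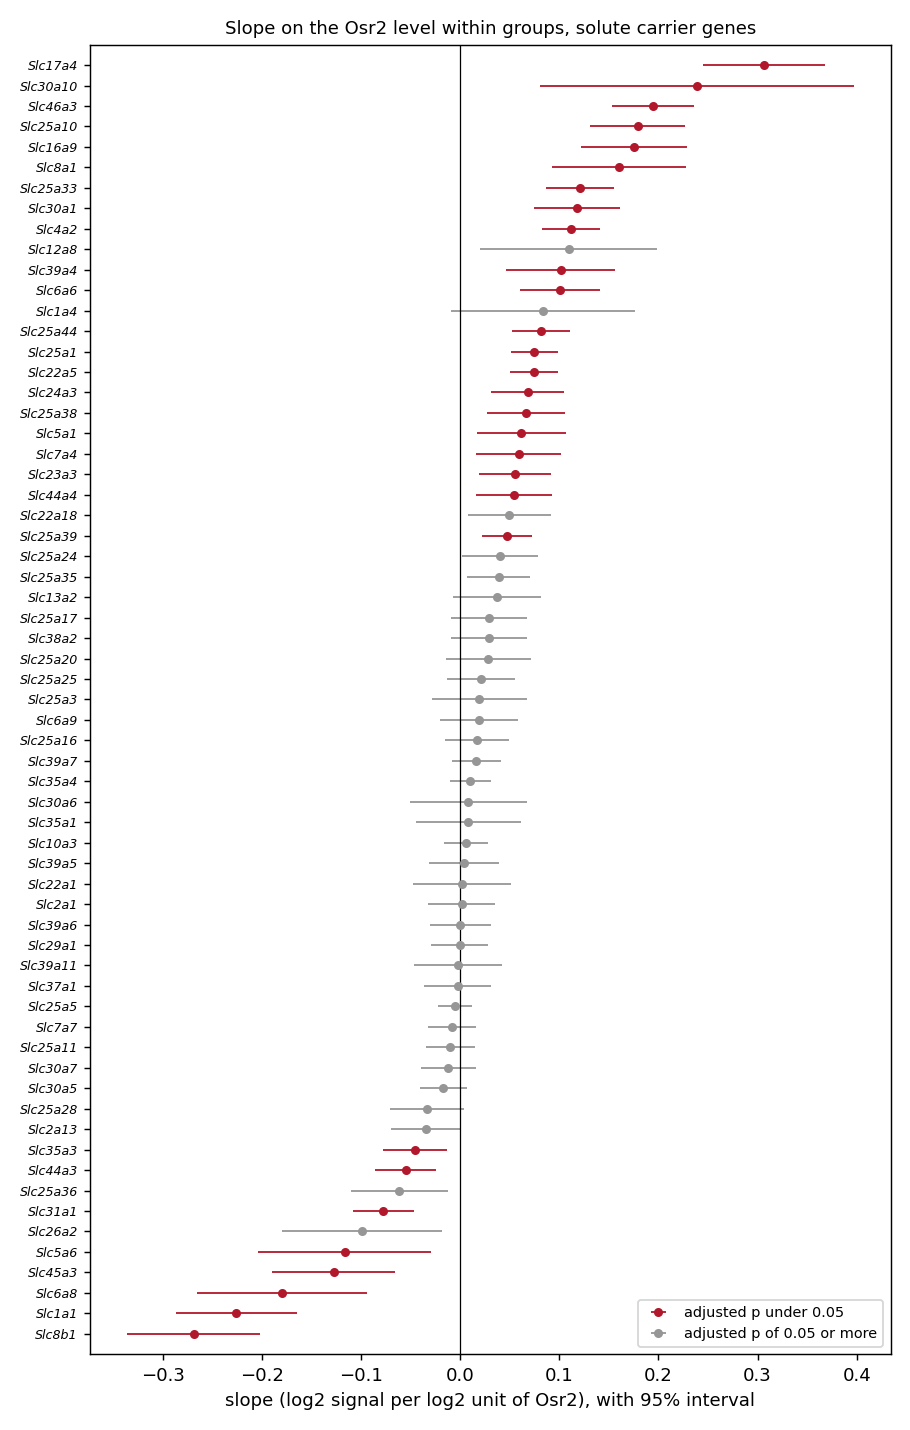
Slope of 63 of the 65 genes on the Osr2 level within groups (log2 signal per log2 unit of Osr2, 24 arrays), with its 95% interval; red marks an adjusted p under 0.05. Slc17a4 lies at the top with 0.31 and Slc8b1 at the bottom with -0.27.

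The sequences before the gene starts are shown for the gene with the smallest p of a positive slope and of a negative slope among those with a single usable window (Slc46a3 and Slc1a1), and for both exporters of the SLC30 family named here (Slc30a1 and Slc30a10). Each is the 250 bases before the start in RefSeq, build GRCm38.p6, 5′ to 3′ on the gene's strand, and 50 of the 65 genes were in that table. Slc46a3 lies at chr5:147894816-147895065 (minus strand), Slc1a1 at chr19:28834885-28835134, Slc30a1 at chr1:191906531-191906780 and Slc30a10 at chr1:185454598-185454847 (plus strand). Capitals mark matches on either strand to the metal response element core TGCNCNC or to the CCAAT box.
Slc46a3: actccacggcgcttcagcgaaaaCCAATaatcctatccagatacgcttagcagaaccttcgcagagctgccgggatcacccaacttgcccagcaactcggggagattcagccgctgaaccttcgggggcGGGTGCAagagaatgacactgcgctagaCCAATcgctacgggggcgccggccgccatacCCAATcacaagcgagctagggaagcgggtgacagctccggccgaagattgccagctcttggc
Slc1a1: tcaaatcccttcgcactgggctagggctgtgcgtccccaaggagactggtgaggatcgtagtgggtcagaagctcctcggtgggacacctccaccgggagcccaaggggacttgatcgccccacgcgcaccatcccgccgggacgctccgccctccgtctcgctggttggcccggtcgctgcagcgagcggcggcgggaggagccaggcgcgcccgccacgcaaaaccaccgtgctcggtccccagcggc
Slc30a1: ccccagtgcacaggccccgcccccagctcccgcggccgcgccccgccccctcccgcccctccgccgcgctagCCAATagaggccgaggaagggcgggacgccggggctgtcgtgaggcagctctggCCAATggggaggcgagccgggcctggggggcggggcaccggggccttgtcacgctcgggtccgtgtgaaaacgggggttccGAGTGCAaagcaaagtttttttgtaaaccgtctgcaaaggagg
Slc30a10: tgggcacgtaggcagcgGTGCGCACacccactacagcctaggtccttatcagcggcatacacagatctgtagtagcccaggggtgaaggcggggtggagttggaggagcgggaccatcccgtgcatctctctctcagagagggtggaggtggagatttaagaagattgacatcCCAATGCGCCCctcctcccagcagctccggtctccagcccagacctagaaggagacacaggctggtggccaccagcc
The core matched 3 times in the Slc30a10 window, once each in those of Slc30a1 and Slc46a3 and not in that of Slc1a1. The first stretch in capitals before Slc30a10 holds overlapping matches on both strands, so these are not separate sites. The core was present in 44.4% of all 32851 windows. CCAAT stood 3 times in the Slc46a3 window, in 33.8% of all windows. In the Slc30a10 window 1 CCAAT box shared 1 base with a core. The GC box GGGCGG stood 5 times before Slc30a1 and once each before Slc46a3 and Slc1a1 (32.7% of all windows). In the Slc46a3 window it shared 2 bases with the core. TATAAA was in none of the 4 windows (12.4% of all). A match describes the letters only.

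Between arrays numbered 5 to 8 and 1 to 4, with group means kept, 14 of the 65 carriers differed (21.5%), 10 higher and 4 lower, where the background was 37.1% (14.7% higher and 22.4% lower). At an unadjusted p under 0.05 there were 17 of 65, against 46.2% of all targets. Slc25a17, the peroxisomal carrier of coenzyme A and nucleotides, was higher by 0.39 (0.29 to 0.48, adjusted p = 3.12e-07), with differences of 0.28 in ATB-346, 0.39 in naproxen and 0.46 in vehicle arrays. Slc30a6, a zinc carrier of the Golgi, was higher by 0.56 (0.42 to 0.70, adjusted p = 9.93e-07) and by 0.50, 0.63 and 0.55 within those groups. Slc25a3, the mitochondrial phosphate carrier, was higher by 0.45, Slc25a24, an ATP-Mg/phosphate carrier, by 0.35, Slc30a1 by 0.47 and Slc5a1, the sodium-glucose cotransporter, by 0.33. Among the 4 lower genes were Slc25a28, a mitochondrial iron carrier, at -0.27, Slc37a1, a glucose-6-phosphate carrier, at -0.23 and Slc30a5, a zinc carrier of the secretory pathway, at -0.16. Cell type markers moved between the same sets: 3 of 4 fibroblast markers were higher (median over the 4 of 0.64), as were 2 of 4 goblet cell markers (median 0.17), and of 5 macrophage markers 2 were higher and 1 was lower (median -0.16). Their part in the result was not tested.

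Probes of a gene did not always share this difference. The gene value of Slc38a2, a sodium-coupled carrier of neutral amino acids, was higher by 0.32 (adjusted p = 0.000361), but of its 3 probes one differed by 1.19 (adjusted p = 1.54e-09), one by -0.22 (adjusted p = 0.0169) and the dimmest by -0.10. Of the pair of Slc25a3 probes the brighter differed by 0.55 and the other by 0.09. For Slc30a5 both probes differed by -0.16. Slc39a7, which releases zinc from the endoplasmic reticulum, was higher by 0.13 as a gene and by 0.18, -0.03 and -0.03 at its probes.

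**Figure D3:**
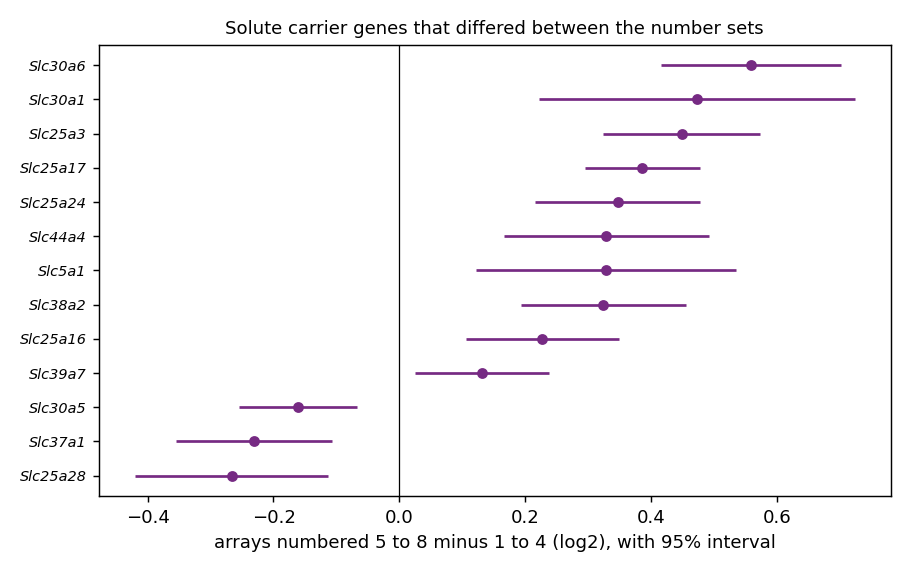
Difference (log2) of 13 of the 14 solute carrier genes that passed between arrays numbered 5 to 8 and 1 to 4, with 95% intervals, group means kept (24 arrays). Slc30a6 has the largest positive difference, 0.56, and Slc25a28, at -0.27, the most negative one shown.

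The comparison of ATB-346 with vehicle asks what differed in ApcMin colon 7 weeks after the last dose. No carrier passed: 0 of 65, as for 0% of all 9048 targets, by limma, and 4 of 65 had an unadjusted p under 0.05, where 6.98% of all targets did. The median difference was 0.03 over the 65 and 0.01 over all targets, and 0 of 65 had groups that did not overlap (0.21% of all). Slc7a7, the light chain of a basic amino acid exchanger, had the smallest p. Its lowest, median and highest log2 signal was 8.23, 8.44 and 8.62 in ATB-346 arrays and 8.45, 8.71 and 8.80 in vehicle arrays. All 6 ATB-346 arrays lay below the vehicle mean, with a difference of -0.25 (-0.39 to -0.11, adjusted p = 0.277), and both of its probes pointed the same way (-0.29 and -0.20). Slc25a16, of the SLC25 family and linked to coenzyme A, averaged 9.86 ± 0.15 in ATB-346 and 9.64 ± 0.19 in vehicle arrays (SD, n = 6 and 8), a difference of 0.22 with all 6 arrays above the vehicle mean (adjusted p = 0.57). Slc6a9, a glycine carrier, averaged 8.81 ± 0.16 in ATB-346 and 9.06 ± 0.22 in vehicle arrays, a difference of -0.26 with 6 of 6 arrays below (adjusted p = 0.611). Slc30a10 had the largest difference, -0.41, with an interval of -1.46 to 0.65. The 17 SLC25 carriers had 13 positive and 4 negative differences with a median of 0.06. The 11 metal carriers had 4 positive and 7 negative ones with a median of -0.05. Of all targets 55.4% had a positive difference, and these classes hold few genes each.

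Slc25a17 was the carrier whose call depended on the number sets. Its lowest, median and highest value was 10.10, 10.21 and 10.49 in ATB-346 and 9.73, 10.12 and 10.41 in vehicle arrays, which overlapped. The difference was 0.19 (-0.03 to 0.41, adjusted p = 0.805) and, with the number set as a block, 0.25 (adjusted p = 0.0427), where 0.309% of all targets passed. Within arrays numbered 1 to 4 it was 0.32 (adjusted p = 0.0956) and within those numbered 5 to 8 it was 0.15 (adjusted p = 0.937), so it passed within neither set. With the Osr2 level added to the block it was 0.25 (adjusted p = 0.0402), where 0.586% of all targets passed.

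The comparison of naproxen with vehicle, which shares the 8 vehicle arrays, again had 0 of 65 carriers past the threshold (0% of all targets, limma), with 6 of 65 at an unadjusted p under 0.05 against 8.72% of all. The median difference was -0.02 over the 65 and 0.01 over all targets, and 0 of 65 had groups that did not overlap (0.133% of all). Slc24a3, a potassium-dependent sodium-calcium exchanger, had a lowest, median and highest value of 10.74, 11.13 and 11.43 in naproxen and 10.44, 10.69 and 11.11 in vehicle arrays. The difference was 0.40 (0.14 to 0.66, adjusted p = 0.488), and all 6 naproxen arrays were above the vehicle mean. Slc13a2, the sodium-coupled citrate and dicarboxylate carrier, was at 11.04, 11.39 and 11.66 in naproxen and 11.22, 11.69 and 11.93 in vehicle arrays. All 6 naproxen arrays were below the vehicle mean, by -0.31 on average (-0.57 to -0.04, adjusted p = 0.564). Slc25a38 differed by 0.35 with 6 of 6 naproxen arrays above the vehicle mean (adjusted p = 0.564), and Slc7a7 by -0.18 with 6 of 6 below it (adjusted p = 0.547).

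The 4 largest differences of naproxen from vehicle were those of Slc17a4, Slc8b1, Slc6a8 and Slc1a1, each with an Osr2 slope that passed. Slc17a4 averaged 9.55 ± 0.50 in naproxen and 8.73 ± 0.75 in vehicle arrays (SD, n = 6 and 8), a difference of 0.81 (-0.01 to 1.63, adjusted p = 0.572). Osr2 averaged 12.11 ± 0.83 and 9.44 ± 2.60 in naproxen and vehicle arrays. With the Osr2 level as a covariate the Slc17a4 difference was -0.01, that of Slc8b1 was 0.09 in place of -0.63, that of Slc1a1 was 0.06 in place of -0.54, that of Slc6a8 was -0.14 in place of -0.62 and that of Slc24a3 0.22 in place of 0.40. That of Slc13a2 was -0.40 in place of -0.31. These values follow from the slopes on the same arrays and from the Osr2 difference between the groups. The Osr2 level and the drug cannot be told apart here, and no cause of the differences was tested.

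**Figure D4:**
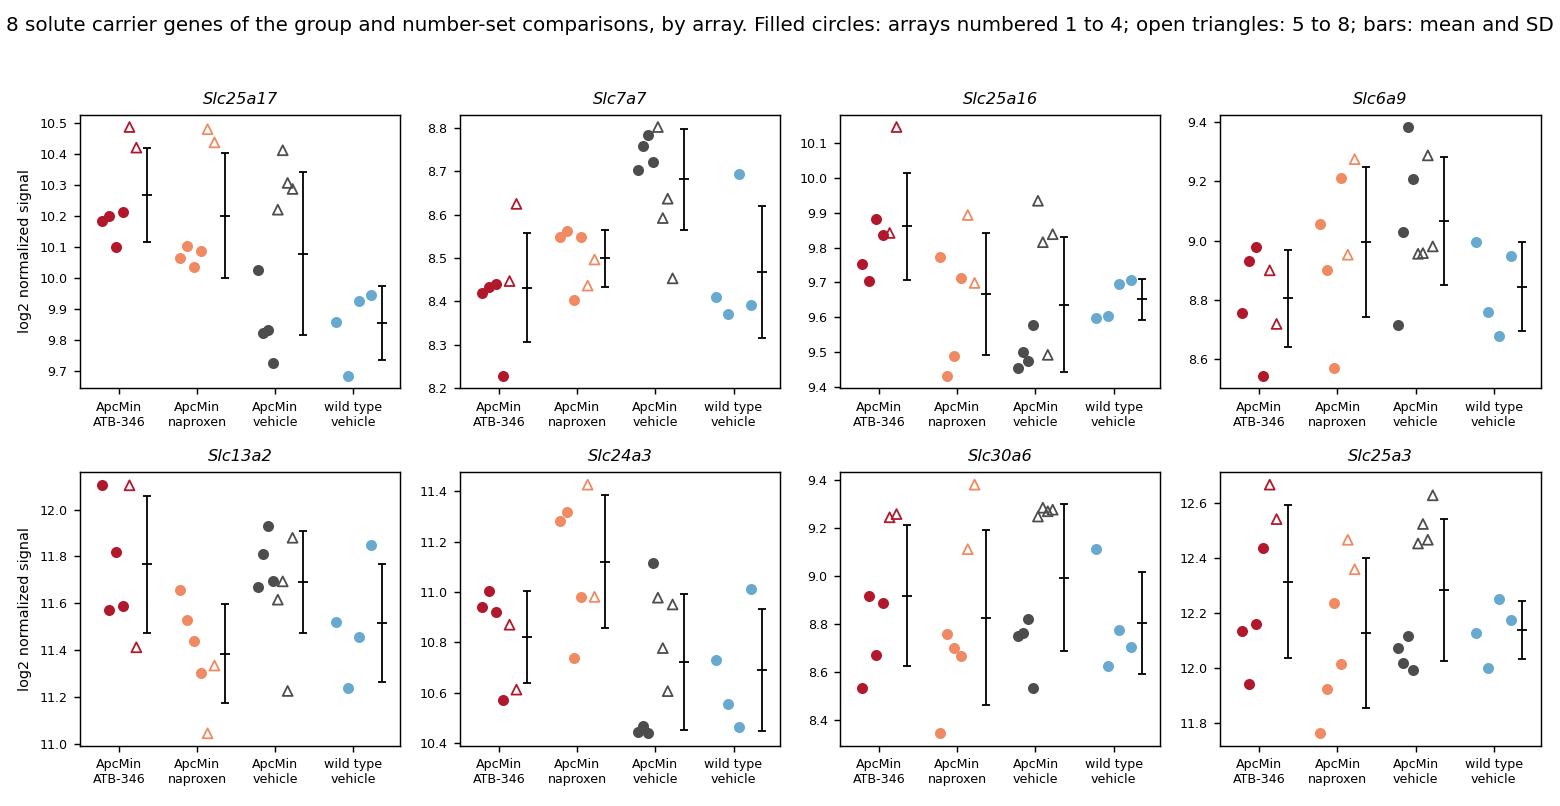
Log2 normalized signal of 8 solute carrier genes named in the group and number-set comparisons, on each array, by group from left to right (ATB-346, naproxen, vehicle, wild type), with symbols for the number sets and bars for mean and SD as labelled. Slc7a7 runs from 8.23 to 8.62 in ATB-346 and from 8.45 to 8.80 in vehicle arrays, and for Slc30a6 and Slc25a3 the triangles (arrays 5 to 8) stand above the circles in each of the 3 ApcMin groups.

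ATB-346 was set against naproxen directly, at doses that differ in mg/kg. Again 0 of 65 carriers passed (0% of all targets, limma), with 5 of 65 at an unadjusted p under 0.05 against 6.48% of all, and 0 of 65 had groups that did not overlap (0.232% of all). Slc13a2 averaged 11.77 ± 0.29 in ATB-346 and 11.38 ± 0.21 in naproxen arrays (SD, n = 6 each), a difference of 0.38 (0.10 to 0.66, adjusted p = 0.71) with all 6 ATB-346 arrays above the naproxen mean. Slc6a8 had lowest, median and highest values of 10.79, 11.43 and 12.64 in ATB-346 and 10.19, 10.61 and 12.01 in naproxen arrays. The difference was 0.78 (0.09 to 1.47, adjusted p = 0.749) and 0.38 with the Osr2 level as a covariate. Slc17a4 differed by -0.88 (-1.76 to -0.01, adjusted p = 0.761) and by -0.21 with that covariate. The part of the Osr2 level in these differences was not tested. Slc2a13, a proton-coupled inositol carrier, differed by 0.25 and Slc24a3 by -0.30 (adjusted p = 0.749 and 0.761). For the remaining carriers an adjusted p over the threshold leaves the interval of the difference as the measure. The narrowest of the 65 was that of Slc25a5, -0.02 to 0.18.

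For the genotype, ApcMin vehicle arrays were set against wild-type vehicle arrays, all of which are numbered 1 to 4. By limma 0 of 65 carriers passed (0% of all targets), 1 of 65 had an unadjusted p under 0.05 against 6.43% of all, and 0 of 65 had groups that did not overlap (0.553% of all). That gene was Slc7a7, with a lowest, median and highest value of 8.45, 8.71 and 8.80 in ApcMin and values of 8.41, 8.37, 8.69 and 8.39 on the wild-type arrays. The difference was 0.22 (0.06 to 0.37, adjusted p = 0.738), and 7 of 8 ApcMin arrays lay above the wild-type mean. These 8 arrays are also the vehicle arrays of both drug comparisons, where Slc7a7 was lower with either drug. The differences of Slc7a7 share these arrays and are not separate results. The 6 carriers of the sugar families all had negative differences, with a median of -0.18: Slc2a1, the glucose carrier GLUT1, averaged 11.17 ± 0.08 in ApcMin and 11.34 ± 0.16 in wild type (SD, n = 8 and 4), a difference of -0.17 (adjusted p = 0.738). The 7 carriers of vitamins, choline, heme and organic ions all had positive ones, with a median of 0.14. None of these 13 passed, and 41.1% of all targets had a positive difference. The shared signs did not hold in other fits: with the number set as a block Slc37a1 differed by 0.09 and Slc44a4 by -0.02, and with the Osr2 level as a covariate Slc22a5 differed by -0.03 and Slc22a18 by -0.01. The median over the 65 was 0.04, against -0.03 over all targets, and 0.13 without wild-type replicate 4, the wild-type array with high Osr2.

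**Figure D5:**
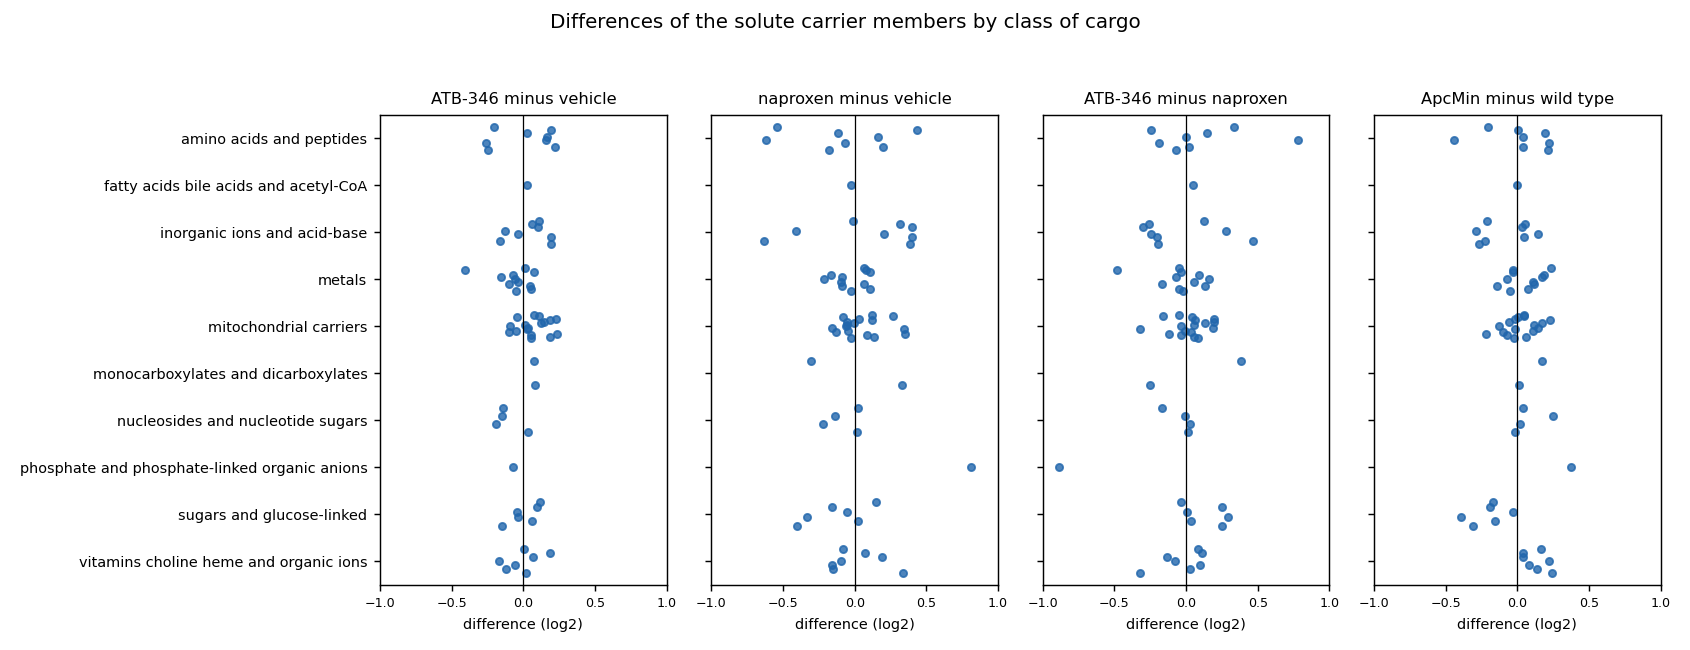
Difference (log2) of each of the 65 genes in the group comparisons (ATB-346 minus vehicle, naproxen minus vehicle and ATB-346 minus naproxen in ApcMin, and ApcMin minus wild type with vehicle), by family class; each point is 1 gene and none had an adjusted p under 0.05. Slc17a4, the only gene of the phosphate class, lies at 0.81 for naproxen minus vehicle and at -0.88 for ATB-346 minus naproxen.

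Genes that work with solute carriers were read from a list of pumps, channels, chaperones and regulators, 19 of which were tested. None passed in the 4 group comparisons. Of the 19, 3 had positive and 3 negative Osr2 slopes that passed, against 11.1% and 13.7% of all targets. Scnn1a, a subunit of the epithelial sodium channel, had -0.21 (adjusted p = 1.34e-06). Slc9a3r1, a scaffold of brush border transporters, had 0.07 (adjusted p = 0.000509), and Mtch2, an outer mitochondrial membrane protein, 0.09 (adjusted p = 0.000662). Between the number sets 4 of 19 were lower and 0 higher, against 22.4% and 14.7% of all targets. Among the 4 were Bsg, the chaperone of monocarboxylate carriers, at -0.22 (adjusted p = 0.0221), Oxsr1, a kinase that acts on cation-chloride cotransporters, at -0.18, and Kcnn4, a calcium-activated potassium channel, at -0.15.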

How the data were processed

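Colon RNA was measured on 24 Illumina MouseRef-8 arrays. The deposited gene table holds mean bead intensity on a linear scale, exported by the authors without normalization with GenomeStudio 1.7.0, per the file headers. The deposited series matrix holds the intensity of 25697 probes from GenomeStudio, per the submitters' processing notes, and served as an alternative. No detection p-values were used. Groups and replicate numbers came from the labels.

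Intensities were background-corrected (normexp, offset 50), quantile-normalized and set to log2 with limma 3.58.1 in R 4.3.3. Targets above the median mean (log2 6.54), 9048 of 18097, were fitted together with 1 mean per group (lmFit, eBayes), and calls were made at an adjusted p under 0.05 (Benjamini-Hochberg over all targets). Quantile normalization hides a change in total RNA, and the offset draws differences of dim genes towards 0. Intervals cover 95% and come from the fit. The fit was tested on simulated data.

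Of the 65 gene names 64 matched a current symbol and 1 a synonym (Slc24a6, now Slc8b1). The genes, the lists and the tests were chosen with earlier results of these data known. Genes were named by rule: up to 3 per class by mean intensity, the 4 smallest p per direction and comparison, the 6 largest within-group SDs and number-set differences, and 4 on each side of the limit of 300. Genes named outside the rule are listed as such in the text. Of these, 2 genes are not reported here. Osr2 as a covariate and the Osr2 slopes were added after the data were seen.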

Additional observations from a re-analysis of the deposited data

Results flagged for a closer look

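Among the 46 genes named by rule, 184 groups of arrays were searched for a lowest or highest array far from the rest, and 17 had one. Chance gives about 1 in 20 for separate groups of genes not chosen by their spread. Some of these genes were named for a large within-group SD, and many of the 17 fall on the same few arrays. The count of 17 therefore cannot be set against that share. In wild type replicate 4, the array with high Osr2, stood apart for 4 genes: Slc16a9 at 8.98 (nearest array 8.20), Slc1a1 at 7.73 (8.96), Slc30a10 at 9.95 (8.40) and Slc6a6 at 12.55 (12.09). Wild-type replicate 3 stood apart for Slc7a7, at 8.69 (8.41).

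Naproxen replicate 3, the naproxen array with the lowest Osr2 (10.64), stood apart for 7 genes: Slc1a1 at 9.18 (nearest array 8.01), Slc8b1 at 10.41 (9.09), Slc45a3 at 9.02 (7.95), Slc5a6 at 10.46 (9.25), Slc6a8 at 12.01 (10.66), Slc6a6 at 11.73 (12.41) and Slc12a8 at 10.79 (11.62). ATB-346 replicate 4 stood apart for Slc12a8 at 10.29 (11.52), Slc38a2 at 9.59 (9.97), Slc5a6 at 10.60 (9.59) and Slc7a4, of the cationic amino acid family, at 8.81 (9.20). Vehicle replicate 7, the array with the highest pancreatic acinar mean (14.19), stood apart for Slc13a2, at 11.22 (11.61). No cause was tested for any of these arrays.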

How the results depend on the processing

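Other settings were no background correction, another offset, scaling to the 75th percentile, no filter, a filter at 300, the series matrix, the number set as a block, each number set alone, each array left out, and Osr2 as a covariate. The 32 named differences were those with the 4 smallest p per direction in each of the 4 group comparisons. None of them passed in the main fit. Of their 1143 values, 1137 kept their direction and side of the threshold. Slc25a17 passed for ATB-346 against vehicle with the number set as a block (0.25, 1 gene called of the 65) and with Osr2 added (0.25, again 1 of 65). Among the 32, the difference turned for Slc35a3, the UDP-N-acetylglucosamine carrier, for ATB-346 against vehicle in arrays 5 to 8 (0.0747). It also turned for Slc17a4 for naproxen against vehicle with Osr2 (-0.00745) and with Osr2 and the block (-0.11). The last was Slc25a17 for ApcMin against wild type in arrays 1 to 4 (-0.00242). Outside the 32, the naproxen differences of Slc8b1 and Slc1a1 turned with Osr2 as a covariate. So did the genotype differences of Slc37a1 and Slc44a4 with the block, and those of Slc22a5 and Slc22a18 with Osr2. The cause was not tested.

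Over all targets, ATB-346 against vehicle called 2 with the series matrix, 28 with the number set as a block, 16 in arrays 1 to 4, 6 with the replicate block and 53 with Osr2 and the block. With 1 array left out it called 0 to 1 (1 without ATB-346 replicate 4), as did naproxen against vehicle (1 without ATB-346 replicate 1) and ATB-346 against naproxen (1 without ATB-346 replicate 2). Members with an Osr2 slope that passed numbered 24 to 35 with an array left out, where 1751 to 2331 of all targets passed. In arrays 5 to 8 alone 1 member passed. Over all targets, Osr2 slopes that passed numbered 129 in arrays 5 to 8. With the filter at 300 they numbered 1381 of 4827 targets tested, and number-set differences 1681 of 4828. In the main fit these were 2242 of 9047 and 3358 of 9048.

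Same-numbered arrays deviated together with r over 0.1 in 19 of 30 pairs (-0.68 to 0.69). Their median r was 0.24, against 0.13 for different-numbered pairs within a number set. The labels do not name pairs, and the numbers were not taken as pairs in the main fit. With the replicate block no carrier passed in the 4 group comparisons (Slc25a17 for ATB-346 against vehicle: 0.26, adjusted p = 0.124). The number of arrays limits the precision.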
